A study of Homo sapiens with 12 samples.

Results

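The enzymes described are the pentose phosphate pathway enzymes PGLS and PGD of the oxidative branch and RPIA, RPE, TKT and TALDO1 of the non-oxidative branch, read as transcripts in C4.2B cells, a castration-resistant prostate cancer line derived from LNCaP. They were chosen by gene name, and all 6 were among the 58735 genes of the count file and among the 16646 genes tested. PolyA RNA was sequenced from 4 arms of 3 libraries each (replicates A, B and C). DMSO cells received vehicle throughout, AKTi cells received the AKT inhibitor ipatasertib at 0.25 μM, EZH2i cells received the EZH2 inhibitor tazemetostat at 1 μM, and combination cells received both at the same doses. Tazemetostat or vehicle was given for 6 days beforehand, and every arm was then dosed for 24 hours in medium with charcoal-stripped FBS, so that the controls also lacked most steroid hormones. The replicates are plates of 1 cell line, so that the p-values measure the spread between these plates and not between patients or lines.

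The pentose phosphate pathway branches from glycolysis at glucose 6-phosphate. Its oxidative branch makes NADPH, the reductant used for lipid synthesis and for glutathione recycling, and ends at ribulose 5-phosphate. The non-oxidative branch interconverts sugar phosphates reversibly, linking ribose 5-phosphate, the precursor of nucleotides, with the glycolytic intermediates fructose 6-phosphate and glyceraldehyde 3-phosphate. Proliferating prostate cancer cells draw on both products.

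The promoters of the members with a matched motif and of the member that rose are shown first, because 5 members fell in the combination and PGLS did not. The RefSeq window of 250 bases before to 50 after the start (GRCh38.p14) was searched on both strands for CACGTG (the E-box, bound by MYC and other factors), TGACNNNGC (the antioxidant response element core, bound by NRF2) and ACGTG (the hypoxia response element core, which lies inside CACGTG). The stretches printed stop before the gene's exon at that start in GENCODE v44, and capitals mark matches. The gene coordinates given further on are those of the count file, whose annotation starts PGLS a few bases inside the stretch and PGD upstream of it.
PGLS, chr19:17511399-17511635, plus strand: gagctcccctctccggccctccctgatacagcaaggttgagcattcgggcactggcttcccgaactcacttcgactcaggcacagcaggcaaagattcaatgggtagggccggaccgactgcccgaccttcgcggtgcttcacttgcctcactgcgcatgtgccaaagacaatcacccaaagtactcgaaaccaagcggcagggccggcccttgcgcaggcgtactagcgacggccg
PGD, chr1:10398814-10399043, plus strand: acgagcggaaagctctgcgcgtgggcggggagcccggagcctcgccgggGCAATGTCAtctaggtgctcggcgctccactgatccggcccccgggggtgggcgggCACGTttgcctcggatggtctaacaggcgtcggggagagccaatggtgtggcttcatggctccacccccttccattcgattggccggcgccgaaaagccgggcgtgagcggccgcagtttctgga
RPE, chr2:210002388-210002564, plus strand: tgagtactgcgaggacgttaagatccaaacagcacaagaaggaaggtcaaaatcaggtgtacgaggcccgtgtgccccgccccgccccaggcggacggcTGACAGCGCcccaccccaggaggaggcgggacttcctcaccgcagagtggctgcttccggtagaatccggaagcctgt
None of the 6 windows held CACGTG, which 7.26% of 35116 RefSeq promoters held. TGACNNNGC was found in PGD, starting 201 bases before the start on the reverse strand, and in RPE, starting 151 bases before it, against 13.3% of all promoters. ACGTG was found in PGD, starting 145 bases before the start on the reverse strand, against 21.4% of all promoters. The PGLS window held no match, and neither did those of RPIA, TKT and TALDO1. These matches are letters in a window, and binding was not measured in the data used here. The PGLS stretch also lies in an exon of the antisense transcript PGLS-DT (GENCODE v44).

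The whole table sets the background. Library totals ranged from 14133755 to 22276417 counts. Within an arm each member varied by 3.38% to 7.93% (root mean square over arms of the coefficient of variation of CPM, counts scaled to TMM-adjusted library size). All 8 prostate markers were detected, and their summed level was 2606 to 2819 TPM (counts per gene length, scaled to 1 total in every library) in DMSO and 6832 to 7040 TPM in the combination, where 7 were called higher and HOXB13 lower (log2 fold change -0.53, adjusted p = 1.01e-10). The 9 markers of immune, fibroblast, endothelial and liver cells summed to 2.54 to 4.28 TPM in DMSO, 3.04 to 3.44 in AKTi, 8.14 to 9.97 in EZH2i and 7.22 to 8.34 in the combination. Of these 9, ALB, CD3E, COL1A2 and PECAM1 were at 0 in DMSO and CD3E in every library. COL1A1 (2.15-fold, adjusted p = 4.59e-07) and VWF (2.37-fold, adjusted p = 2.45e-06) were higher in the combination than in the controls. Both also rose with EZH2i. VWF was called higher with AKTi too (2.58 ± 0.43 CPM in DMSO, 3.88 ± 0.44 CPM in AKTi), and COL1A1 was not. The part of either marker list in the members' differences was not tested. Levels are shares of all counts, and fewer cells with a transcript and less of it per cell cannot be told apart.

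In DMSO the 3 most abundant members were TALDO1, PGD and TKT. Per length, with the gene lengths in the count file, TALDO1 stood at 362 ± 8.61 TPM (SD, n = 3), PGD at 308 ± 20.9 TPM and TKT at 243 ± 16.3 TPM. RPIA (53.2 ± 4.14 TPM) and RPE (51.4 ± 1.24 TPM) were lower and did not differ beyond their spread, and PGLS was lowest at 31.0 ± 3.44 TPM. The order depended on the length assigned to each gene. The file lists 9507 bases for TKT, whereas its canonical transcript in GENCODE v44 has 2996, and with canonical lengths TKT (436 ± 30.5 TPM) stood above PGD (227 ± 16.3 TPM) and PGLS (49.4 ± 5.92 TPM) above RPE (32.1 ± 0.46 TPM) and RPIA (30.6 ± 2.32 TPM). TALDO1 was highest with either set of lengths.

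In the combination, 5 of the 6 members fell and PGLS rose. The 5 that fell stood at 39.5% to 54.1% of their DMSO level, and PGLS stood at 154% of it. Over all tested genes, 35.2% were called lower and 38.0% higher in this comparison (edgeR quasi-likelihood test, Benjamini-Hochberg adjusted p under 0.05), and the median log2 fold change was -1.16 over the 6 members and 0.062 over all genes tested. With scaling by library size alone, 7574 genes were higher and 4749 lower in place of 6320 and 5866, and the 6 members kept their calls. All 4 non-oxidative members fell, while the 2 oxidative members moved in opposite directions.

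**Figure D1:**
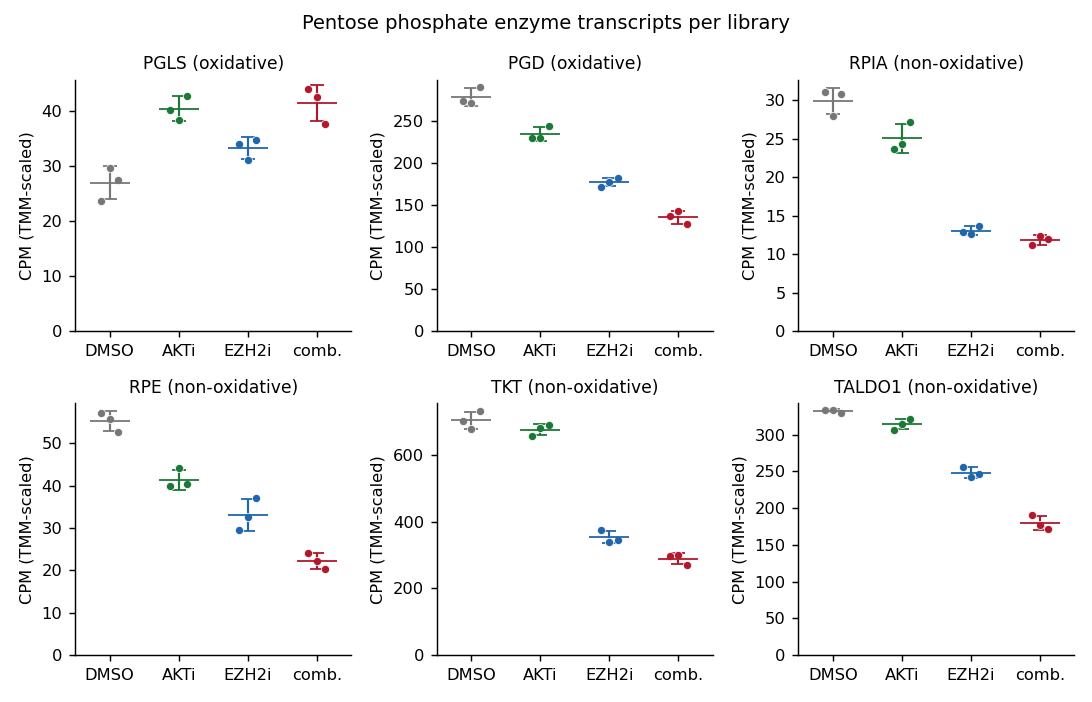
Counts scaled to library size by TMM (CPM, y axis from 0) of each enzyme in the 3 libraries of each arm (points), with the arm mean and SD (bars). PGLS was higher in every treated library than in DMSO, where it reached 29.7 CPM at most, and the other members were lowest in the combination.

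PGLS encodes 6-phosphogluconolactonase, which hydrolyses the lactone of the oxidative branch (chr19:17511629-17521288, plus strand, hg38). Its level was 23.7, 29.7 and 27.5 CPM in DMSO libraries A, B and C and 40.2, 38.3 and 42.8 CPM in AKTi. It was 34.0, 31.0 and 34.7 CPM in EZH2i and 43.9, 42.5 and 37.7 CPM in the combination. Every treated library lay above every DMSO library, and the AKTi and combination libraries overlapped. PGLS rose with AKTi by a log2 fold change of 0.59 (SE 0.089, adjusted p = 1.05e-06), with EZH2i by 0.30 (SE 0.088, adjusted p = 0.0029) and with the combination by 0.62 (SE 0.087, adjusted p = 6.71e-08). The combination was above EZH2i by 0.32 (adjusted p = 0.0022). Against AKTi the difference was 0.034 with a 95% interval of -0.14 to 0.21 (adjusted p = 0.74), and its sign turned when any of 4 single libraries was left out. Its counts ranged from 352 to 866 per library. The antisense genes AC010618.3 (the PGLS-DT of GENCODE v44) and AC010618.2, which overlap it, had at most 14 and 9 counts. As the strand setting is not given, these counts do not show how many reads of the overlap were antisense.

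PGD encodes 6-phosphogluconate dehydrogenase, which yields NADPH and ribulose 5-phosphate (chr1:10398592-10420144, plus strand). Its level was 274, 271 and 291 CPM in DMSO and 229.8, 229.7 and 244 CPM in AKTi. It was 172, 177 and 182 CPM in EZH2i and 136, 143 and 127 CPM with both agents. The 4 arms did not overlap. PGD fell in each single-agent arm and further in the combination, to 84.2% of DMSO with AKTi (log2 fold change -0.25, SE 0.054, adjusted p = 2.76e-04), 63.5% with EZH2i (-0.65, SE 0.055, adjusted p = 4.98e-13) and 48.7% with the combination (-1.04, SE 0.055, adjusted p = 6.02e-19). The combination was below AKTi by -0.79 (adjusted p = 4.18e-15) and below EZH2i by -0.38 (adjusted p = 3.60e-07).

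RPIA encodes ribose 5-phosphate isomerase, which converts ribulose 5-phosphate to the ribose form used for nucleotides (chr2:88691644-88750935, plus strand). Its level was 31.1, 28.0 and 30.8 CPM in DMSO and 23.7, 24.4 and 27.3 CPM in AKTi. It was 12.9, 12.6 and 13.7 CPM in EZH2i and 11.2, 12.4 and 12.02 CPM in the combination. The step down came with EZH2i. RPIA fell to 43.7% of DMSO with EZH2i (log2 fold change -1.20, SE 0.10, adjusted p = 5.26e-13), where 4.12% of tested genes had a lower fold change, and to 39.5% with the combination (-1.34, SE 0.10, adjusted p = 1.55e-14). The AKTi difference was -0.26 (SE 0.096, adjusted p = 0.028). This call was lost without DMSO A, DMSO C, AKTi A or AKTi B (adjusted p up to 0.117) and with 3 other settings. The combination and EZH2i libraries did not overlap, but their difference of -0.15 (95% interval -0.36 to 0.072) did not pass the test (adjusted p = 0.28).

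RPE encodes ribulose 5-phosphate 3-epimerase, which makes xylulose 5-phosphate, a substrate of transketolase (chr2:210002565-210022259, plus strand). Its level was 57.2, 55.8 and 52.7 CPM in DMSO and 39.8, 44.1 and 40.2 CPM in AKTi. It was 29.6, 32.6 and 37.1 CPM in EZH2i and 24.0, 22.3 and 20.3 CPM in the combination. The 4 arms did not overlap, as for PGD. RPE fell to 75.0% of DMSO with AKTi (log2 fold change -0.42, SE 0.083, adjusted p = 8.52e-05), the lowest value among the 6 members in that comparison, to 60.2% with EZH2i (-0.73, SE 0.083, adjusted p = 9.55e-10) and to 40.3% with the combination (-1.31, SE 0.086, adjusted p = 2.87e-16). Its 3′ end overlaps KANSL1L on the opposite strand, which stood at 13.2 ± 0.82 CPM in DMSO and 19.8 ± 1.73 CPM in the combination. Whether the counting used strand is not given in the sources used here.

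TKT encodes transketolase, which moves 2-carbon units between sugar phosphates and needs thiamine diphosphate (chr3:53224707-53256052, minus strand). Its level was 702, 680.1 and 733 CPM in DMSO and 658, 683 and 691 CPM in AKTi, so that these arms overlapped. It was 374, 340.5 and 346 CPM in EZH2i and 297, 300.4 and 272 CPM in the combination. TKT fell to 50.1% of DMSO with EZH2i (log2 fold change -1.00, SE 0.054, adjusted p = 3.47e-18) and to 41.1% with the combination (-1.28, SE 0.055, adjusted p = 6.97e-22). The AKTi difference was -0.058 with a 95% interval of -0.17 to 0.051 (adjusted p = 0.41), and it lay at 0.0014 and 0.0005 with scaling by library size and by upper quartile. The combination was below EZH2i by -0.29 (SE 0.054, adjusted p = 3.44e-05).

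TALDO1 encodes transaldolase, which moves 3-carbon units and yields fructose 6-phosphate and erythrose 4-phosphate (chr11:747329-765024, plus strand). Its level was 334, 333 and 330.1 CPM in DMSO and 307, 315 and 321 CPM in AKTi. It was 257, 242 and 247 CPM in EZH2i and 191, 177 and 171 CPM in the combination. Among the 5 members that fell in the combination it fell least, to 54.1% of DMSO (log2 fold change -0.89, SE 0.053, adjusted p = 1.63e-17), and with EZH2i it stood at 74.7% (-0.42, SE 0.052, adjusted p = 7.15e-09). Its AKTi libraries lay below those of DMSO, but the difference of -0.080 (95% interval -0.19 to 0.025) did not pass the test (adjusted p = 0.22). The combination was below EZH2i by -0.47 (SE 0.053, adjusted p = 2.21e-09).

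**Figure D2:**
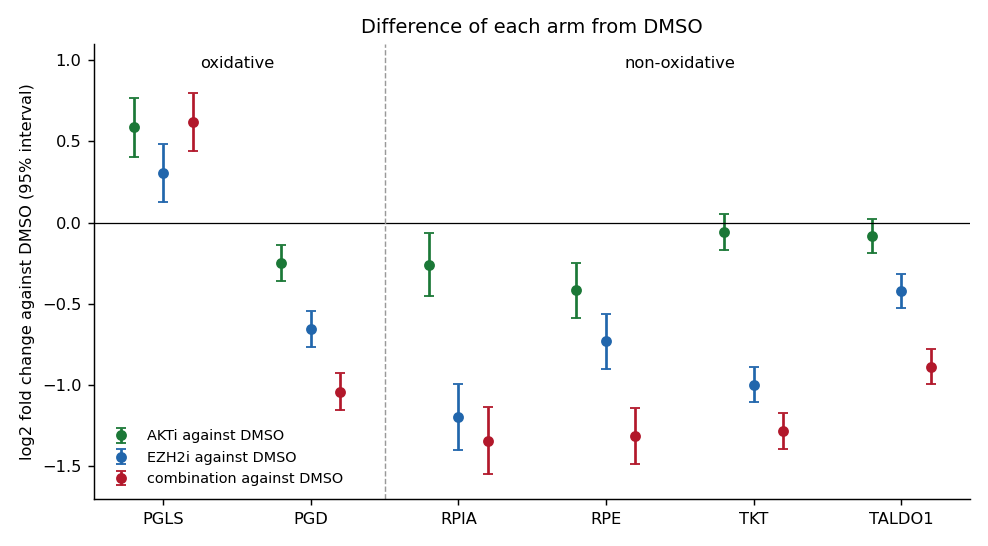
Log2 fold change against DMSO (y axis) of each enzyme with AKTi, EZH2i and the combination, with 95% intervals from the edgeR fit. Intervals of TKT and TALDO1 with AKTi cross 0, and PGLS alone lies above 0, at 0.59, 0.30 and 0.62.

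The single-agent arms differed in how many members moved. Tazemetostat had also been given beforehand and ipatasertib had not. Agent and length of exposure therefore cannot be told apart here or in the direct comparison of these arms. With AKTi, 3 members fell (PGD, RPIA and RPE), PGLS rose and 2 were not called, where 21.9% of all tested genes were lower and 20.6% higher, and the members' median was -0.16. Scaling by library size alone turned this background from 3429 genes higher and 3644 lower to 4112 and 3023. With EZH2i, 5 fell and PGLS rose, where 31.5% were lower and 32.6% higher, and the median was -0.69. The direct comparison of the agents had all 6 members lower with EZH2i than with AKTi, against 25.1% of all genes lower and 25.4% higher. In it RPIA and TKT both differed by -0.94 (adjusted p = 8.32e-10 and 5.89e-17), PGD by -0.41 (adjusted p = 9.18e-08), TALDO1 by -0.34 (adjusted p = 1.00e-06), RPE by -0.32 (adjusted p = 0.0021) and PGLS by -0.28 (adjusted p = 0.0064). The PGLS call was lost with scaling by library size alone (-0.20, adjusted p = 0.057), and that scaling gave 5104 genes higher and 3293 lower in this comparison in place of 4226 and 4170.

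Adding the second agent lowered most members again. Against AKTi alone, the combination had 5 members lower and PGLS not called, where 32.1% of all genes were lower and 32.1% higher (with scaling by library size alone, 6544 higher and 4330 lower in place of 5344 and 5343). The differences ran from -1.23 for TKT to -0.79 for PGD. Against EZH2i alone, PGD, RPE, TKT and TALDO1 were lower, PGLS was higher and RPIA was not called, where 25.7% of all genes were lower and 21.1% higher (4069 higher and 3687 lower with scaling by library size alone, in place of 3506 and 4275). RPE differed most in this comparison (-0.58, SE 0.088, adjusted p = 8.96e-07).

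The interaction, the combination minus both single-agent differences on the log2 scale, tests whether the effect of AKTi differed with and without EZH2i. It passed the test for 2 of the 6 members, both lower than the sum of the single agents, where 17.5% of all tested genes were called lower and 10.7% higher. For TALDO1 the single agents summed to -0.50 and the combination stood at -0.89, an interaction of -0.39 (SE 0.074, adjusted p = 1.05e-04), which ranged from -0.44 to -0.34 over 19 other settings and passed in each. For TKT the sum was -1.05 and the combination -1.28, an interaction of -0.23 (SE 0.076, adjusted p = 0.021), which was lost without DMSO B, AKTi B, AKTi C, EZH2i C or combination C (-0.28 to -0.17 over the libraries left out, adjusted p up to 0.13). The interaction of PGLS was -0.27 (95% interval -0.52 to -0.022, adjusted p = 0.098), with a sum of 0.89 beside 0.62 in the combination. PGD (-0.14, adjusted p = 0.20), RPE (-0.17, adjusted p = 0.34) and RPIA (0.11, adjusted p = 0.62) did not pass either.

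**Figure D3:**
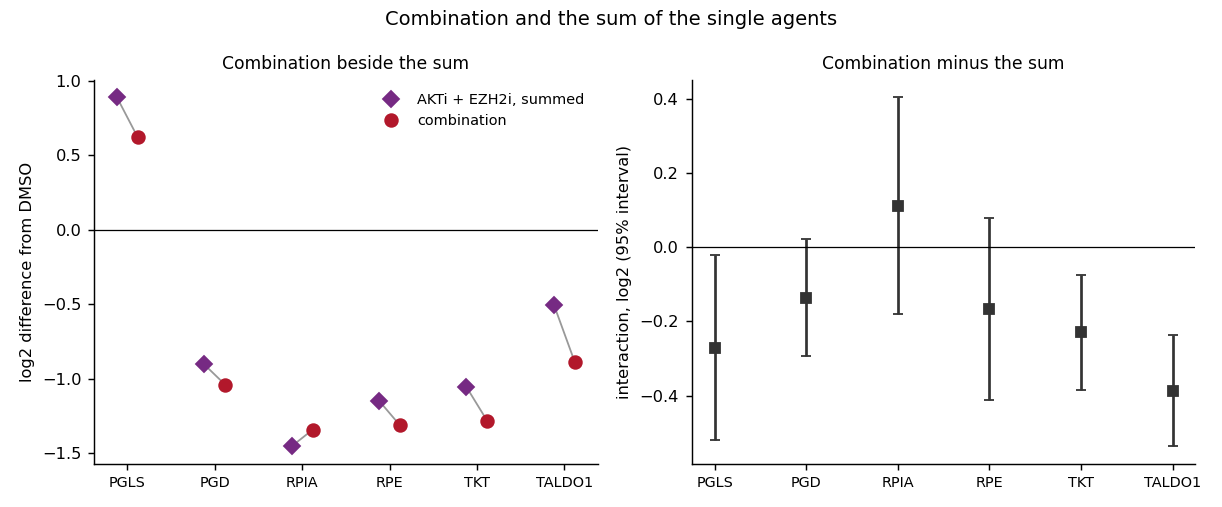
Left, log2 difference from DMSO in the combination (circles) beside the sum of the AKTi and EZH2i differences (diamonds) for each enzyme. Right, the interaction with its 95% interval, which passed the adjusted test for TKT (-0.23) and TALDO1 (-0.39).

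The branches were compared per length within each library, as a description with no test. The non-oxidative sum was 710 ± 28.6 TPM in DMSO (SD, n = 3), 679 ± 15.005 TPM in AKTi, 487 ± 16.4 TPM in EZH2i and 389 ± 10.3 TPM in the combination. The oxidative sum of PGLS and PGD was 339 ± 21.9, 315 ± 13.1, 255 ± 14.3 and 227 ± 9.62 TPM in the same order. Both sums were lowest in the combination, and the non-oxidative sum was lower relative to DMSO. The oxidative share of the 6 enzymes was 32.3% ± 0.71 in DMSO and 31.7% ± 0.57 in AKTi. It was 34.3% ± 0.96 with EZH2i and 36.9% ± 0.84 with both agents. All 3 combination libraries (36.3% to 37.9%) lay above all DMSO libraries (31.6% to 32.99%), and the AKTi and DMSO libraries overlapped. With canonical lengths the share was 21.5% in DMSO and 27.9% in the combination.

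Most of this shift was gone without PGLS. The log2 ratio of the oxidative to the non-oxidative sum differed from DMSO by 0.29 in the combination, and by 0.035 with PGD alone as the oxidative branch (0.033 with canonical lengths). With TKT left out instead it differed by 0.20, and the EZH2i difference went from 0.13 to -0.011. With AKTi, the ratio without PGLS was 0.14 lower than in DMSO. PGLS made up 9.16% ± 1.00 of the oxidative sum in DMSO and 24.1% ± 0.85 in the combination, and the ratio of PGD to PGLS was 10.0 ± 1.17 in DMSO, 5.57 ± 0.16 with AKTi, 5.12 ± 0.33 with EZH2i and 3.15 ± 0.14 with both. The DMSO libraries lay above those of either single agent and the combination libraries below them, while AKTi and EZH2i overlapped. With canonical lengths the ratio went from 4.63 ± 0.54 to 1.46 ± 0.067. Within the non-oxidative branch, TKT was 23.2% of the pathway sum in DMSO and 18.7% in the combination, and TALDO1 was 34.6% and 36.6%.

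**Figure D4:**
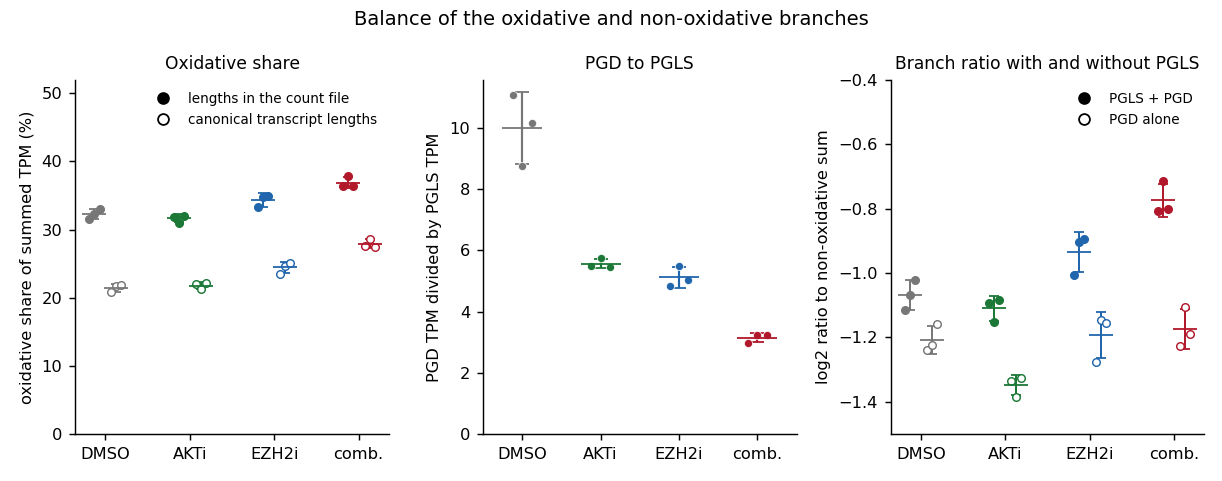
Oxidative share of the summed TPM with 2 sets of gene lengths (left, %), PGD divided by PGLS (middle) and log2 of the oxidative over the non-oxidative sum with and without PGLS (right, axis not from 0), for 3 libraries per arm with mean and SD. The share reached 36.9% in the combination from 32.3% in DMSO, and the ratio without PGLS stayed near its DMSO value of -1.21 there.

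The members' patterns were compared by the root mean square difference of log2 CPM over 12 libraries after subtraction of each gene's DMSO mean. RPIA and TKT were the most alike pair at 0.159, followed by PGD and TALDO1 at 0.171 and PGD and RPE at 0.190. PGLS lay 0.905 to 1.30 from the others. Among 8223 protein-coding genes with a mean of at least 4 log2 CPM, the nearest to PGLS were MID1IP1 (0.107) and TBC1D5 (0.111). The nearest to PGD were DNAJC11 (0.051) and AURKAIP1 (0.064), to RPIA MRPS2 (0.077) and NIP7 (0.081), and to RPE UQCRC2 (0.070) and CCT3 (0.080). For TKT they were PPP1R14B (0.059) and CLPP (0.062), and for TALDO1 COX8A (0.053) and SORD (0.057). Every member had a neighbour outside the pathway closer than any other member. As that neighbour was sought among 8223 genes and the members are few, this does not show whether the members moved together.

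The enzymes around the pathway were read from fixed lists in the combination against DMSO, where 35.2% of all tested genes were lower and 38.0% higher, and no list was tested as a set. Of 15 relatives of the pathway 12 were tested, of which 5 fell and 3 rose, with a median of -0.10. PRPS1 (-1.57) and PRPS2 (-0.89), which activate ribose 5-phosphate for nucleotide synthesis, fell most. H6PD, an enzyme of the endoplasmic reticulum that makes NADPH there, rose by 1.32 (SE 0.063, adjusted p = 2.15e-20), from 61.6 ± 0.79 to 154 ± 7.86 CPM. RBKS, ribokinase, rose by 1.26, with 29 to 56 counts per library in DMSO and 81 to 135 in the combination. The sequence relatives RPEL1, TKTL1 and TKTL2 had at most 10, 12 and 2 counts in any library and were not tested.

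Of 12 tested genes on a list for NADPH supply outside the pathway, 8 fell and 2 rose (median -0.55). The background was the same 35.2% lower and 38.0% higher over all genes. The list also holds genes that make no NADPH themselves, among them NADK (-0.29) and MTHFD1L (-0.71), both counted as lower. MTHFD1 of the folate cycle (-2.19) and malic enzyme ME1 (-1.60) fell most, and ALDH1L1 (1.98) and the mitochondrial transhydrogenase NNT (1.35) rose. ALDH1L1 was a low transcript, with 11 to 18 counts per library in DMSO and 52 to 70 in the combination. Of 11 NADPH-using enzymes tested 9 fell and 1 rose (median -1.05). FASN, fatty acid synthase, was among those that fell (-1.77), and SRD5A1, a steroid 5-alpha-reductase, rose (0.17). All 10 tested glycolytic genes next to the pathway fell (median -1.31), among them HK2 (-2.02), which makes glucose 6-phosphate, and GPI (-1.68), which uses it. Of 14 genes of the NRF2 list, 9 fell and 4 rose (median -0.50). NQO1 (-1.71) and GSR (-1.64) fell most, whereas HMOX1 (1.81) and KEAP1 (0.72) rose.

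**Figure D5:**
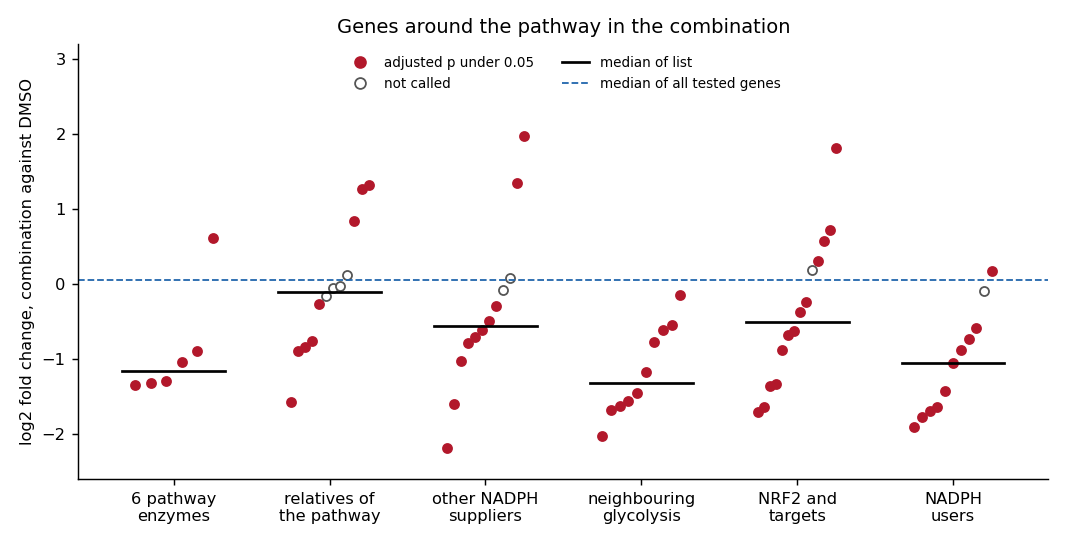
Log2 fold change in the combination against DMSO (y axis) of the 6 enzymes and of the tested genes of 5 lists around the pathway. Filled points passed the adjusted test, black bars are list medians and the dashed line is the median of all tested genes (0.062); the glycolytic genes all lie below 0.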

How the data were processed

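RNA-seq (polyA) of C4.2B cells comprised 4 arms of 3 replicates, that is 12 libraries. STAR alignment to hg38 and HTSeq gene counting were done by the authors, who deposited raw counts as whole numbers for 58735 genes, with a column of gene lengths. The authors' deposited normalized signal was checked and equals each member's count divided by 1 factor per library (relative spread at most 4.15e-10), and it was not used further. Versions, annotation and strand setting are not given in the sources used here, and sequencing on NextSeq 500 or at Novogene is not assigned to libraries.

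Counts were filtered with filterByExpr of edgeR 4.0.16 in R 4.3.3 (minimum count 10, minimum total 15), scaled by TMM and fitted with the quasi-likelihood test, 1 mean per arm over 12 libraries. P-values were adjusted by Benjamini-Hochberg over 16646 genes at 0.05. Adjusted p-values of single genes come from this fit, except where another setting or a left-out library is named. CPM used TMM-scaled library sizes, and TPM used the lengths in the count file or, added after the data were seen, GENCODE v44 canonical transcripts. At totals of 14133755 to 22276417 counts, the members had at least 193 counts in each library. Alternatives were DESeq2 1.42.0, other scalings and filters, a fit of the compared arms alone, leaving out single libraries, and a replicate block. The edgeR and DESeq2 calls were tested on simulated counts with genes changed in the combination only. The branch ratio, the likeness of patterns and the motif search were not tested in this way. Figures were drawn with matplotlib.

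The members and lists were chosen with earlier results of these data known. Named genes were the members, the 2 largest rises and falls past the threshold per list in the combination, 3 sequence relatives, and the 2 genes most like each member. One gene that met this rule is not reported here. Pairs of libraries of an arm differed by a chi-square of 2.57 to 7.77 per gene, more than sampling noise, and each counted as a replicate.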

Additional observations from a re-analysis of the deposited data

Results flagged for a closer look

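The effect of AKTi differed with and without EZH2i for TALDO1 and TKT by the interaction term of the edgeR fit. This term was called lower for 17.5% of all tested genes and higher for 10.7%, and it did not pass for the other members. For TALDO1 it was -0.39 on the log2 scale, with AKTi 0.080 below DMSO without EZH2i, a difference that did not pass the test, and 0.47 below EZH2i in its presence. For TKT it was -0.23, with corresponding differences of -0.058 and -0.29. The TKT value did not pass the test when any of 5 single libraries was left out, and the TALDO1 value passed in each setting tried.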

How the results depend on the processing

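Of 834 alternative values of the members, 815 kept their direction and call, and all 139 alternative counts of called genes lay within 1.5 times the main count. For RPIA with AKTi the difference did not pass with library size only (-0.1983), upper quartile (-0.199) or a filter of 1 count in total (-0.2637), and ranged from -0.3447 to -0.2178 with single libraries left out. TKT with AKTi turned to 0.0014 (library size only) or 0.0005 (upper quartile), and PGLS in EZH2i against AKTi did not pass with library size only (-0.1958). Left-out libraries gave -0.2811 to -0.1702 for the TKT interaction and -0.0273 to 0.0933 for PGLS in the combination against AKTi, where it turned negative without AKTi A (-0.0273), AKTi B (-0.0203), EZH2i A (-0.0194) or combination A (-0.0168). Library size only moved the median of all genes in the combination against DMSO from 0.062 to 0.26, with PGLS then at 0.82, and gave 6630 genes higher and 4193 lower with EZH2i in place of 5421 and 5249. The causes were not tested.

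For the log2 branch ratio, sums without length gave 0.3694 for the combination and 0.254 for EZH2i. Mean log2 values gave 0.9985, 0.6661 and, for AKTi, 0.3745. Without PGLS they were 0.0346, 0.0147 and -0.1408. Without TKT the combination gave 0.1959 and EZH2i turned to -0.0108. Canonical lengths gave 0.5025, 0.2437 and 0.0261, and without PGLS 0.0327, 0.0191 and -0.1627, both chosen after seeing the data.

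Same-letter libraries of different arms correlated at -0.058 to 0.069 over 18 pairs, none over 0.1, and 4 of 12 libraries correlated best with their own letter, so the letters were not treated as pairs. With a replicate block, 12146 genes were called in the combination against DMSO in place of 12186, and no member's call changed.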
